A study of Homo sapiens with 8 samples.

Results

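CD73, the product of NT5E, and 9 other genes that make, sense, take up or break down extracellular adenosine were examined in SW480, a human colorectal adenocarcinoma cell line. The 10 genes were taken by name from a table of 58735 genes, and all 10 were found. The set was put together because NT5E was higher in SPOCK1-overexpressing cells, so the NT5E difference is what led to the choice of genes. It is described here and not tested, and it supports nothing else. The other 9 genes were chosen for their function, with earlier results of these data known.

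The 2 groups were SW480 cells stably overexpressing SPOCK1 with a FLAG tag (4 libraries) and SW480 cells with the vector control (4 libraries). SPOCK1 encodes a proteoglycan that cells release into their matrix. Per the labels' protocols, cells of this line received lentivirus and stayed under puromycin until SPOCK1 overexpression was seen on a Western blot. Whether the 4 libraries of a group stem from independent cultures or infections is not labelled. Each p-value is thus set against the spread among these libraries alone, which may be technical. Should each group be 1 puromycin-selected population, SPOCK1 and any other feature of that population cannot be told apart.

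Extracellular ATP and ADP are stripped of phosphate at the cell surface by NTPDases such as CD39 (ENTPD1), and CD73 turns the resulting AMP into adenosine. Adenosine acts on G protein-coupled receptors: ADORA2A and ADORA2B raise cAMP, and ADORA1 lowers it. The equilibrative transporters SLC29A1 and SLC29A2 carry adenosine across the membrane, after which adenosine kinase (ADK) turns it back into AMP or adenosine deaminase (ADA) turns it into inosine. In tumours the pathway is best known for adenosine that restrains immune cells, and CD73 is also found on many carcinoma cells.

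NT5E (ENSG00000135318) lies on the plus strand of chromosome 6, 85449584 to 85495791 (GRCh38), and its annotated exons add up to 4533 bases. No other annotated gene overlaps it.

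Libraries held 35643585 to 42812951 counts, as deposited, without normalization. SPOCK1 had 6719 to 9712 counts in the overexpressing libraries and 0 to 6 in the vector libraries. Of 10 colon epithelial markers 7 were tested, of which 1 fell and 0 rose, beside 0.798% falls and 0.247% rises among all genes tested. In a fit with per-library offsets for GC content and length, 1 fell and 1 rose. KRT8, a keratin, averaged 8812 ± 429 CPM (counts scaled to a fixed library total, with edgeR's TMM factors) in SPOCK1 cells and 8287 ± 896 CPM in vector cells (SD, n = 4 each). CDH1, which encodes E-cadherin, fell to 11.2 ± 1.21 CPM in SPOCK1 cells, against 17.8 ± 1.29 CPM in vector cells (SD, n = 4 each, log2 fold change -0.67 ± 0.11, edgeR adjusted p = 0.00537). VIL1, which encodes villin, averaged 64.9 ± 7.68 and 78.1 ± 3.43 CPM without overlap (edgeR adjusted p = 0.197). SPOCK1 libraries lay wholly below vector libraries in 4.8% of all genes tested. CDX1, CDH17 and LGALS4, other intestinal markers, had at most 2 counts in any library. The 10 leukocyte markers summed to 3.95 to 6.16 CPM in SPOCK1 libraries and 4.598 to 5.81 in vector libraries, with MS4A1 at 0 in all. The 10 fibroblast markers summed to 4.51 to 5.22 and 4.41 to 5.48 CPM, with DCN, LUM and FAP at 0. The 10 endothelial markers summed to 48.5 to 57.5 and 55.8 to 67.8 CPM, nearly all from EGFL7 (49.9 and 60.8 CPM), with CDH5 and KDR at 0. Ribosomal RNA took 0.560% to 0.671% of counts in SPOCK1 libraries and 0.697% to 0.738% in vector libraries. The ribosomal RNA and CDH1 differences run beside each result below, and their part in them was not tested. In bulk RNA, fewer cells with a transcript and less of it per cell cannot be told apart.

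NT5E was higher in every SPOCK1 library than in any vector library, from a low level. It had 163, 161, 181 and 181 counts in SPOCK1 libraries 1 to 4, and 87, 101, 105 and 98 counts in vector libraries 1 to 4. On the CPM scale these were 4.36, 4.59, 4.18 and 5.16 in SPOCK1 cells, against 2.27, 2.73, 2.83 and 2.39 in vector cells. The lowest SPOCK1 library thus stood above the highest vector library, and the groups did not overlap. The mean was 4.57 ± 0.43 CPM in SPOCK1 cells and 2.56 ± 0.27 CPM in vector cells (SD, n = 4 each). The log2 fold change was 0.84 ± 0.16 (SE), with a 95% interval of 0.50 to 1.18, which is 1.79-fold. Of the 15790 genes tested, 123 had a larger log2 fold change than NT5E. NT5E is also among the 3.43% of tested genes whose SPOCK1 libraries all lay above the vector libraries. This place is part of how NT5E was chosen, and nothing is read from it.

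**Figure D1:**
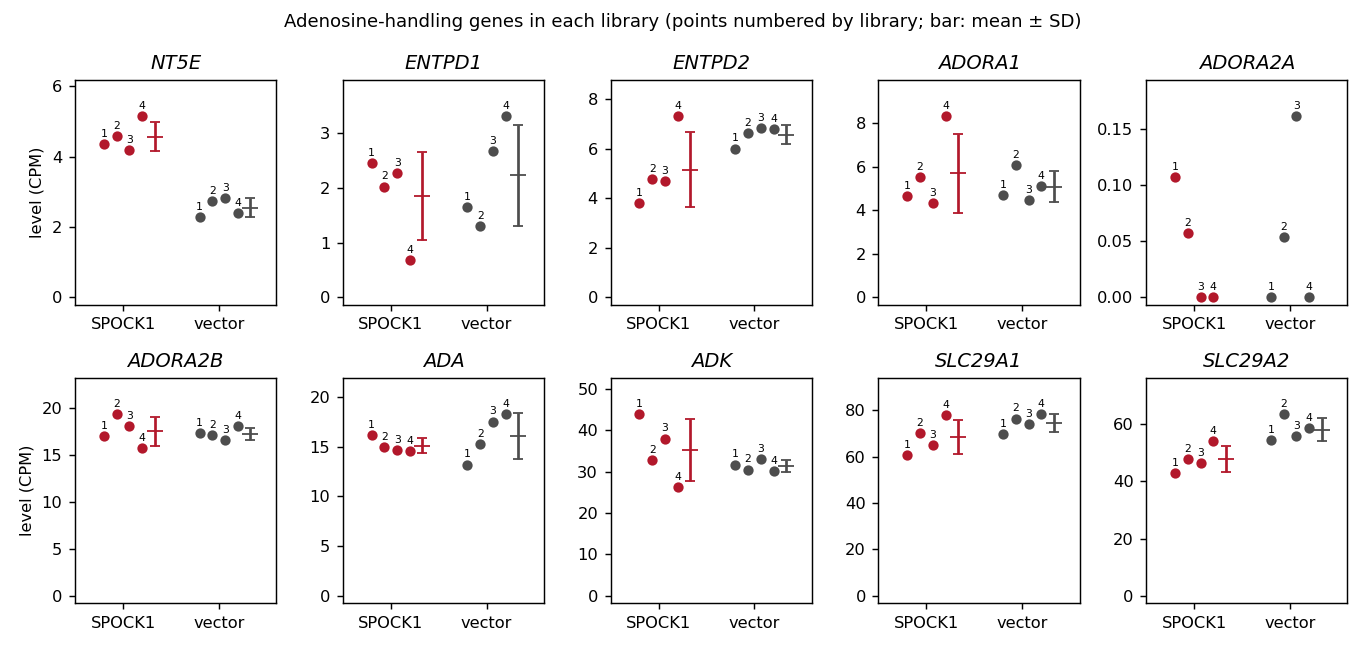
Level in CPM (y axis) of the 10 adenosine-handling genes in each of 4 SPOCK1 libraries (red, left) and 4 vector control libraries (grey, right). Points are numbered by library, and bars show the mean ± SD, left out for ADORA2A, whose counts were near 0. NT5E (4.18 to 5.16 CPM against 2.27 to 2.83) and SLC29A2 (43.0 to 54.1 against 54.4 to 63.5) are the genes whose groups do not overlap.

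The tested protein-coding genes nearest to NT5E, picked by position, gave no such separation. TBX18, a transcription factor gene 685.1 kb upstream, averaged 3.55 ± 1.09 CPM in SPOCK1 cells and 3.24 ± 0.67 CPM in vector cells (log2 fold change 0.14 ± 0.22, SE, edgeR adjusted p = 0.83). SNX14, a sorting nexin gene whose nearer end lies 9.71 kb downstream, averaged 33.4 ± 8.66 and 31.95 ± 6.10 CPM (log2 fold change 0.07 ± 0.16, edgeR adjusted p = 0.898). The groups overlapped for both.

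Of the 9 other genes, 8 had enough counts to be tested, and 0 were called in either direction by edgeR's quasi-likelihood test at an adjusted p under 0.05. Over all 15790 genes the share called was 1.04%. DESeq2 also called 0 of the 8. At an unadjusted p under 0.05 edgeR had 1 of the 8, SLC29A2, where 13.7% of all genes tested lay. Among the 8, 3 log2 fold changes were positive and 5 negative, with a median of -0.11, against a median of -0.0042 over all genes tested. The 9th, ADORA2A, did not reach the count needed for the test.

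**Figure D2:**
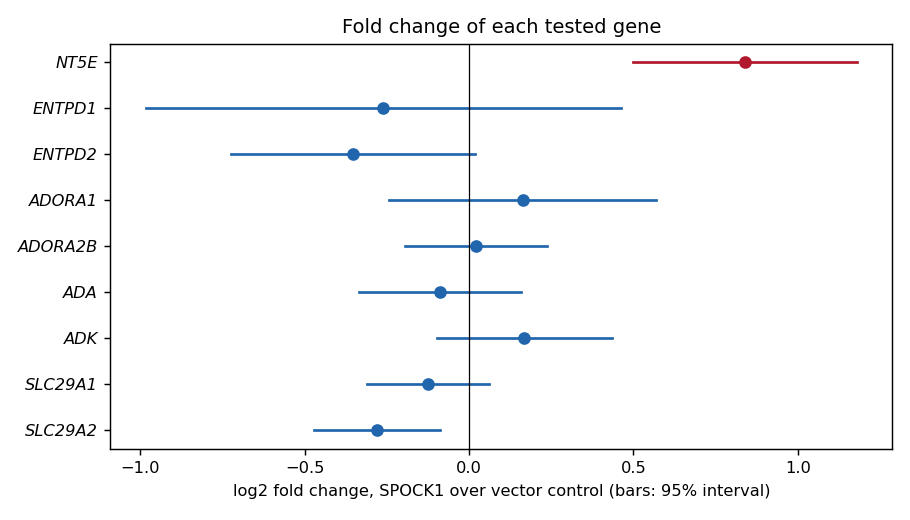
Log2 fold change of SPOCK1 over vector control cells (x axis) for the 9 tested genes (y axis), with 95% intervals as bars. NT5E (red), chosen because it was higher, is at 0.84. The intervals of the 8 others (blue) include 0, except that of SLC29A2 (-0.47 to -0.09), which did not pass after adjustment over all genes.

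Among the ectonucleotidases upstream of CD73, ENTPD1 encodes CD39, which takes ATP and ADP down to AMP. ENTPD1 (chromosome 10, 95711779 to 95869695, plus strand) had 2.46, 2.02, 2.27 and 0.684 CPM in SPOCK1 libraries 1 to 4, against 1.65, 1.30, 2.67 and 3.32 CPM in vector libraries 1 to 4. SPOCK1 library 4 was the lowest of all and vector library 4 the highest, and the groups overlapped. Its log2 fold change was -0.26 ± 0.34 (SE, 95% interval -0.98 to 0.46, edgeR adjusted p = 0.784), and 0.01 ± 0.29 without SPOCK1 library 4 or -0.0014 ± 0.36 without vector library 4. ENTPD1 shares 454 exonic bases with ENTPD1-AS1 on the other strand, and the strand setting of the counting is not given in the sources used here, so reads of the 2 genes cannot be separated there.

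ENTPD2, an NTPDase that prefers ATP over ADP (chromosome 9, 137048098 to 137054045, minus strand), had 3.80, 4.79, 4.69 and 7.33 CPM in SPOCK1 libraries 1 to 4, against 6.01, 6.62, 6.85 and 6.80 CPM in vector libraries 1 to 4. Libraries 1 to 3 of the SPOCK1 group lay below every vector library, and SPOCK1 library 4 lay above them all. The log2 fold change was -0.35 ± 0.18 (SE, 95% interval -0.72 to 0.02, edgeR adjusted p = 0.393). Without SPOCK1 library 4 it was -0.57 ± 0.15 (adjusted p = 0.0728).

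ADORA2B was the most abundant adenosine receptor transcript, and it was nearly level between the groups. It lies on chromosome 17, 15944917 to 15975746 (plus strand), and had 17.0, 19.3, 18.03 and 15.7 CPM in SPOCK1 libraries 1 to 4, against 17.2, 17.1, 16.5 and 18.05 CPM in vector libraries 1 to 4. The ranges overlapped, with both the highest and the lowest library in the SPOCK1 group. The log2 fold change was 0.02 ± 0.10 (SE, 95% interval -0.19 to 0.24, edgeR adjusted p = 0.950).

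ADORA1 (chromosome 1, 203090654 to 203167405, plus strand) had 4.63, 5.50, 4.32 and 8.32 CPM in SPOCK1 libraries 1 to 4, against 4.68, 6.05, 4.47 and 5.10 CPM in vector libraries 1 to 4. SPOCK1 library 4 stood above the rest, and the other SPOCK1 libraries lay within or just below the vector range. The log2 fold change was 0.16 ± 0.19 (SE, 95% interval -0.24 to 0.57, edgeR adjusted p = 0.757), and it turned to -0.08 ± 0.17 without SPOCK1 library 4. Counted per kilobase of exon, ADORA2B stood at 5.43 ± 1.63 times the ADORA1 level in SPOCK1 cells and 5.65 ± 0.68 times in vector cells (SD, n = 4 each, exact two-sided permutation p = 0.771 on log2 ratios).

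ADORA2A (chromosome 22, 24417879 to 24442360, plus strand) was barely counted. It had 4, 2, 0 and 0 counts in SPOCK1 libraries 1 to 4, and 0, 2, 6 and 0 counts in vector libraries 1 to 4. Summed, 6 counts gave 0.0392 CPM of the deposited totals in SPOCK1 cells (exact 95% Poisson interval 0.0144 to 0.0854) and 8 counts gave 0.0528 CPM in vector cells (0.0228 to 0.104), intervals that cover counting error only. No difference was detectable at this depth. The readthrough gene SPECC1L-ADORA2A covers 56.8% of its exonic bases and is listed at 0 in every library. How reads that fit both genes were counted is not given in the sources used here, and its bearing on the ADORA2A level was not tested.

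The nucleoside transporters were the most abundant of the 10 genes. SLC29A2, the equilibrative transporter ENT2 (chromosome 11, 66362521 to 66372214, minus strand), had 43.0, 47.7, 46.5 and 54.1 CPM in SPOCK1 libraries 1 to 4, against 54.4, 63.5, 55.8 and 58.6 CPM in vector libraries 1 to 4. Every SPOCK1 library lay below every vector library, by a narrow margin between 54.1 and 54.4 CPM. Groups that do not overlap occurred in 8.23% of all genes tested and with SPOCK1 lower in 4.8%. The mean was 47.8 ± 4.63 CPM in SPOCK1 cells and 58.1 ± 4.01 CPM in vector cells (SD, n = 4 each). SLC29A2 had a log2 fold change of -0.28 ± 0.09 (SE, 95% interval -0.47 to -0.09). It did not pass after adjustment over all genes (edgeR adjusted p = 0.180, and 0.0682 to 0.424 over the alternatives). SLC29A2 shares 279 exonic bases with the antisense gene AP001107.9, which had 30 to 54 counts in SPOCK1 libraries and 44 to 63 in vector libraries, beside 1607 to 2010 and 2071 to 2401 for SLC29A2.

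SLC29A1, the equilibrative transporter ENT1 (chromosome 6, 44219505 to 44234151, plus strand), had 60.7, 70.3, 65.0 and 77.8 CPM in SPOCK1 libraries 1 to 4, against 69.7, 76.5, 74.1 and 78.3 CPM in vector libraries 1 to 4. The groups overlapped, and the log2 fold change was -0.13 ± 0.09 (SE, 95% interval -0.31 to 0.06, edgeR adjusted p = 0.564). Per kilobase, SLC29A2 stood at 1.15, 1.10, 1.16 and 1.13 times SLC29A1 in SPOCK1 libraries 1 to 4, against 1.26, 1.35, 1.22 and 1.21 times in vector libraries 1 to 4. These ratios did not overlap between the groups. The exact two-sided permutation p was 0.0286, the smallest that 4 against 4 allows, and 0.0857 adjusted over the 3 ratios tested (ADORA2B to ADORA1, SLC29A2 to SLC29A1 and ADK to ADA).

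Adenosine kinase, which keeps intracellular adenosine low, varied more among SPOCK1 than among vector libraries. ADK (chromosome 10, 74151185 to 74709303, plus strand) had 43.9, 32.7, 38.0 and 26.2 CPM in SPOCK1 libraries 1 to 4, against 31.7, 30.5, 33.1 and 30.0 CPM in vector libraries 1 to 4. The SPOCK1 values spread on both sides of the vector range, with a coefficient of variation of 21.4% against 4.34%. This difference in spread was not tested. On the log2 scale ADK differed by 0.17 ± 0.13 (SE, 95% interval -0.10 to 0.43, edgeR adjusted p = 0.591).

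ADA, the deaminase (chromosome 20, 44619522 to 44652233, minus strand), had 16.2, 14.9, 14.7 and 14.6 CPM in SPOCK1 libraries 1 to 4, against 13.2, 15.2, 17.5 and 18.2 CPM in vector libraries 1 to 4. All SPOCK1 values lay inside the vector range. On the log2 scale ADA differed by -0.09 ± 0.12 (SE, 95% interval -0.34 to 0.16, edgeR adjusted p = 0.784). The ratio of ADK to ADA per kilobase was 2.08 ± 0.37 in SPOCK1 cells and 1.78 ± 0.28 in vector cells (SD, n = 4 each, exact two-sided permutation p = 0.257, and 0.386 adjusted over the 3 ratios).

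Per kilobase of exonic length, the 10 genes kept 1 order of mean levels in both groups. In SPOCK1 cells SLC29A2 averaged 17.6 ± 1.70 CPM per kb, SLC29A1 15.5 ± 1.68, ADK 11.05 ± 2.36, ADORA2B 6.86 ± 0.60 and ADA 5.29 ± 0.26 (SD, n = 4). ENTPD2 followed at 1.96 ± 0.58 CPM per kb, ADORA1 at 1.36 ± 0.44, NT5E at 1.009 ± 0.094, ENTPD1 at 0.267 ± 0.115 and ADORA2A at 0.0098 ± 0.012 (SD, n = 4). In vector cells the means in the same order began with 21.35 ± 1.48 CPM per kb for SLC29A2 and 16.9 ± 0.85 for SLC29A1, and ended with 0.564 ± 0.059 for NT5E and 0.320 ± 0.133 for ENTPD1 (SD, n = 4). Neighbours in this order did not overlap in the vector libraries. In the SPOCK1 libraries the ranges overlapped between SLC29A2 and SLC29A1, SLC29A1 and ADK, ENTPD2 and ADORA1, and ADORA1 and NT5E. Within libraries, SLC29A1 was above ADK in 3 of 4 SPOCK1 libraries and ADORA1 above NT5E in 4 of 4.

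**Figure D3:**
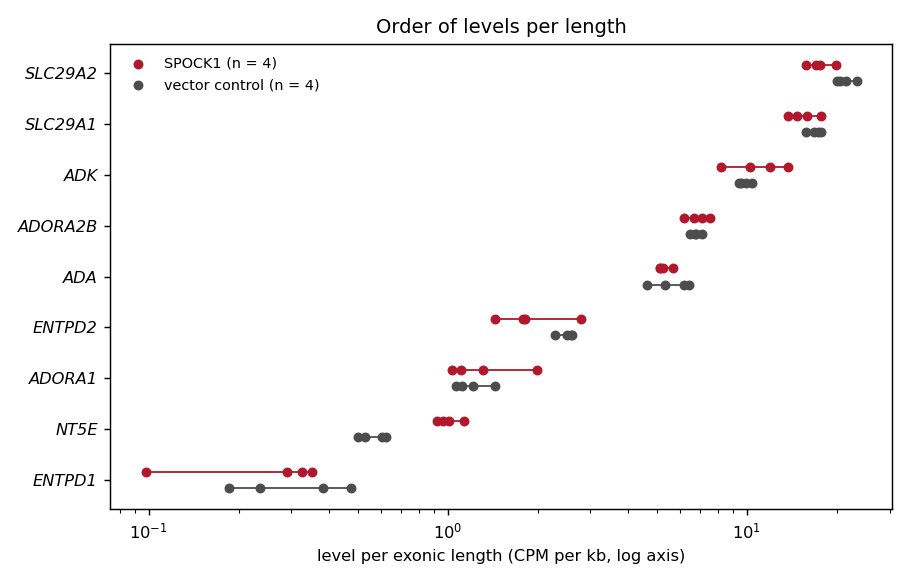
Level per kilobase of exonic length (x axis, log scale) of 9 genes (y axis, ordered by the vector mean) in 4 SPOCK1 libraries (red, upper) and 4 vector control libraries (grey, lower). Points are libraries and lines span the lowest to the highest. The transporters are at the top, NT5E lies at 1.009 CPM per kb in SPOCK1 cells and 0.564 in vector cells, and ADORA2A is left out because several libraries had 0 counts.

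Among all tested genes, SLC29A2 lay at percentile 83.0 of mean level per kilobase in SPOCK1 cells and 85.8 in vector cells, and ADORA2B at 67.1 and 66.5. NT5E lay at 31.1 and 21.4, above ENTPD1 in both groups. Within a library, NT5E per kilobase stood at 0.667, 0.557, 0.518 and 0.409 of ENTPD2 in SPOCK1 libraries 1 to 4, and 0.220, 0.239, 0.240 and 0.204 in vector libraries 1 to 4. These ratios did not overlap, but they contain the NT5E values that chose the gene and were not tested.

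For 5 of the 9 tested genes the SPOCK1 values followed the order of the libraries by base composition, whose part in the differences between libraries was not tested. The share of all tested genes that did so is not given here. The order was itself drawn from GC-rich and GC-poor genes of these data, so nothing is read from the 5 of 9. A GC trend was taken for each library as the difference on the log2 scale between the fifth of genes with the highest and the fifth with the lowest GC content, relative to the mean of each gene. It was -0.28, 0.03, -0.19 and 0.27 in SPOCK1 libraries 1 to 4, against -0.14, 0.20, -0.16 and 0.24 in vector libraries 1 to 4. Libraries 1 and 3 of both groups were thus low and libraries 2 and 4 higher. With the SPOCK1 libraries placed by this trend (1, 3, 2, 4), the GC-rich ENTPD2 (63.6% GC in its longest transcript), SLC29A2 (61.1%) and SLC29A1 (56.9%) were higher at each step. ADK (41.7%) and ENTPD1 (42.6%) were lower at each step, with ADK at 43.9, 38.0, 32.7 and 26.2 CPM. NT5E (45.2%), ADORA1 (60.3%), ADORA2B (43.8%) and ADA (53.8%) followed neither course throughout. In the vector libraries, placed as 3, 1, 2 and 4, ADK alone of the 9 moved 1 way at each step.

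**Figure D4:**
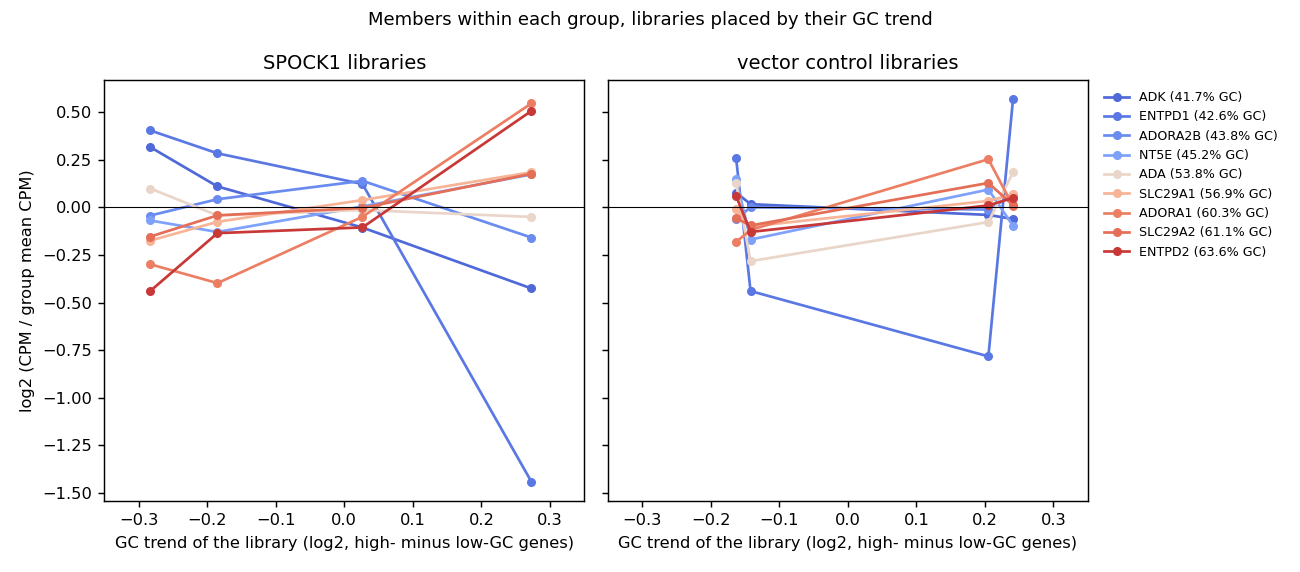
Level of 9 genes relative to their group mean (y axis, log2) against the GC trend of the library (x axis, log2 difference between high-GC and low-GC genes), for SPOCK1 libraries (left) and vector control libraries (right). Colours run from blue for low to red for high GC content of the gene. In the SPOCK1 panel ADK (41.7% GC) runs down and ENTPD2 (63.6%) up. ENTPD1 in library 4, at the right end, is the lowest point.

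The NT5E values on both sides of that split are given as a description only. NT5E was chosen for its rise over these same libraries, so a rise in parts of them supports nothing. The NT5E difference was present on both sides. It was 0.75 ± 0.24 on the log2 scale (SE) with libraries 1 and 3 alone and 0.93 ± 0.23 with libraries 2 and 4 alone, at 2 libraries per group. With per-library offsets for GC content and for length it was 0.82 ± 0.16. SLC29A2 stood at -0.30 ± 0.12 and -0.26 ± 0.10 in these sets and at -0.20 ± 0.06 with the offsets (edgeR adjusted p = 0.424, 0.271 and 0.0955). ENTPD2 was at -0.59 ± 0.21 with libraries 1 and 3 and -0.15 ± 0.19 with libraries 2 and 4 (edgeR adjusted p = 0.421 and 0.864).

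Outside the 10 genes, 127 others of the pathway were listed by function, also with earlier results of these data known, and 90 of them were tested. Of the 90, 3 fell, 0 rose and the other 87 missed the threshold, beside 0.247% rises and 0.798% falls among all genes. At an unadjusted p under 0.05 there were 17 of the 90, against 13.7% of all genes tested. The median log2 fold change of the 90 was -0.04, against -0.0042 over all genes tested.

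The most abundant of the other tested cell-surface nucleotidases was ENTPD8, and it fell. ENTPD8 is an NTPDase of the liver and gut surface that, like CD39, acts on ATP and ADP. It had 44.2, 40.6, 40.9 and 46.4 CPM in SPOCK1 libraries 1 to 4, against 65.3, 74.3, 68.2 and 77.3 CPM in vector libraries 1 to 4. The groups did not overlap, with SPOCK1 lower, as in 4.8% of all genes tested, and every SPOCK1 library lay well below every vector library. The mean was 43.04 ± 2.80 CPM in SPOCK1 cells and 71.3 ± 5.50 CPM in vector cells (SD, n = 4 each), a change of -39.6%. On the log2 scale ENTPD8 fell by 0.73 ± 0.09 (SE, edgeR adjusted p = 2.19e-04). The call was lost with libraries 1 and 3 alone (log2 fold change -0.65 ± 0.12, adjusted p = 0.144). That fit had 2 libraries per group and called 8 genes over the whole table. With offsets for GC content and length ENTPD8 was at -0.59 ± 0.07 (adjusted p = 8.83e-05), beside a GC content of 67.0%. Per kilobase ENTPD8 stood at 15.2 ± 0.99 CPM in SPOCK1 cells and 25.1 ± 1.94 in vector cells (SD, n = 4 each), above ENTPD1 and ENTPD2 in both groups.

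The other 5 tested cell-surface nucleotidases did not pass. ALPL, the tissue-nonspecific alkaline phosphatase, averaged 2.01 ± 0.23 CPM in SPOCK1 cells and 1.175 ± 0.341 in vector cells (SD, n = 4 each, log2 fold change 0.77 ± 0.25, edgeR adjusted p = 0.180). ENPP3, a nucleotide pyrophosphatase, and ALPI, the intestinal alkaline phosphatase, averaged under 1 CPM with log2 fold changes of -1.56 ± 0.54 and -1.14 ± 0.41 (edgeR adjusted p = 0.212 and 0.235). ALPI, ALPP and ALPG are close paralogs whose reads may have been split or dropped. The 4 intracellular NTPDases ENTPD4, ENTPD5, ENTPD6 and ENTPD7 had log2 fold changes of 0.03 to 0.41, and 0 passed. With GC content and length offsets ENTPD6 passed upward (0.24 on the log2 scale, adjusted p = 0.0237).

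Among genes tied to ATP release, 1 of 9 tested fell and 0 rose, beside 0.798% falls and 0.247% rises among all genes tested. With GC content and length offsets SLC17A9, the vesicular nucleotide transporter, passed upward (0.26 on the log2 scale, adjusted p = 0.0113). CALHM1, a pore subunit through which ATP leaves taste cells, had 2.09, 2.40, 2.06 and 2.68 CPM in SPOCK1 libraries 1 to 4, against 3.66, 4.24, 4.74 and 3.80 CPM in vector libraries 1 to 4. The CALHM1 groups did not overlap, with SPOCK1 lower, as in 4.8% of all genes tested. Its log2 fold change was -0.84 ± 0.17 (SE, edgeR adjusted p = 0.0238). It no longer passed in the fit with a replicate block (adjusted p = 0.0681) and without SPOCK1 library 1, 2 or 3 or vector library 2 or 3 (adjusted p = 0.0566 to 0.0897). With libraries 1 and 3 or 2 and 4 alone CALHM1 was at -1.01 and -0.67 and did not pass (adjusted p = 0.306 and 0.264). For PANX1, the pannexin channel, the log2 fold change was 0.13 ± 0.09 (SE, edgeR adjusted p = 0.530).

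Receptor signalling genes downstream of adenosine did not pass the test. Of 28 tested genes for G proteins, adenylyl cyclases, protein kinase A, phosphodiesterases, the cAMP-activated exchange factors RAPGEF3 and RAPGEF4 and the factors CREB1, ATF1 and CREM, 0 rose and 0 fell by edgeR, and likewise 0 by DESeq2, with 3 at an unadjusted p under 0.05 (13.7% over all genes tested) and a median log2 fold change of -0.04. GNAS, the stimulatory G protein subunit, averaged 1119 ± 78.7 CPM in SPOCK1 cells and 1190 ± 36.3 in vector cells (SD, n = 4 each, log2 fold change -0.09 ± 0.07, edgeR adjusted p = 0.638).

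Of 10 tested genes known to answer to cAMP in some cells, 1 fell, 0 rose and 9 did not pass. All 10 log2 fold changes were negative, with a median of -0.32. Over all genes tested 0.798% fell, 50.8% were negative and the median was -0.0042. NR4A1, an orphan nuclear receptor, had 12.98, 15.3, 15.3 and 17.0 CPM in SPOCK1 libraries 1 to 4, against 22.7, 24.3, 24.2 and 20.1 CPM in vector libraries 1 to 4. The NR4A1 groups did not overlap, with SPOCK1 lower, as in 4.8% of all genes tested. Its log2 fold change was -0.59 ± 0.11 (SE, edgeR adjusted p = 0.0112), and the call was lost without vector library 2 (adjusted p = 0.0515). With libraries 1 and 3 or 2 and 4 alone NR4A1 was at -0.72 and -0.46 and did not pass (adjusted p = 0.224 and 0.0848). PER1, a clock gene, and SIK1, a salt-inducible kinase, had log2 fold changes of -0.42 ± 0.13 and -0.43 ± 0.17 (edgeR adjusted p = 0.141 and 0.277). PER1 passed downward without a low-count filter (adjusted p = 0.0314) and without SPOCK1 library 4 (0.0284). FOS was at -0.18 ± 0.11 (adjusted p = 0.478).

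The remaining lists had no gene past the test. For the other adenosine genes 5 of 11 were tested, with PNP, the purine nucleoside phosphorylase, at 96.0 ± 7.73 CPM in SPOCK1 cells and 83.4 ± 5.98 in vector cells (SD, n = 4 each, log2 fold change 0.20 ± 0.08, edgeR adjusted p = 0.302). Cytosolic nucleotidases and AMP enzymes had 12 tested members with a median of 0.08, and P2 receptors had 6 with a median of 0.05. Among 11 transcription factors reported to act on NT5E in some cells, all were tested. CTNNB1, which encodes β-catenin, averaged 1088 ± 87.2 CPM in SPOCK1 cells and 987.2 ± 53.0 in vector cells (SD, n = 4 each, log2 fold change 0.14 ± 0.08, edgeR adjusted p = 0.448). TCF7, a β-catenin partner, averaged 137.1 ± 16.7 and 175.0 ± 4.54 CPM (log2 fold change -0.35 ± 0.09, edgeR adjusted p = 0.0681). It passed downward by DESeq2 (adjusted p = 0.0184), without a low-count filter (0.0122), with GC content and length offsets (0.0205) and without SPOCK1 library 4 (0.0254).

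**Figure D5:**
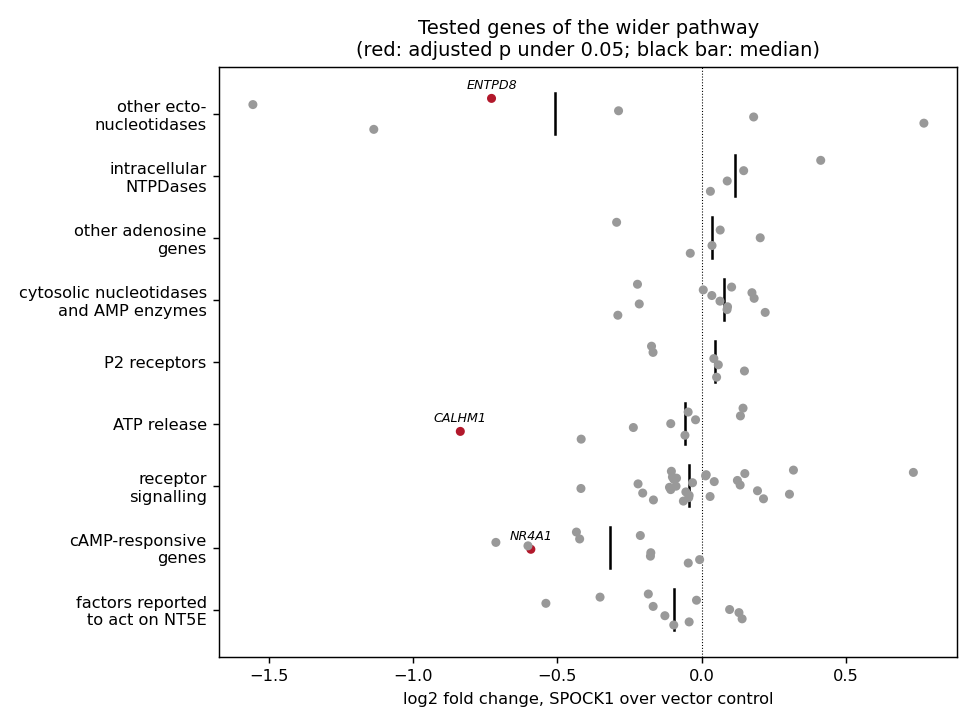
Log2 fold change of SPOCK1 over vector control cells (x axis) for tested genes of 9 wider pathway lists (y axis), 1 point per gene. Red points passed an adjusted p of 0.05 over all genes (ENTPD8, CALHM1 and NR4A1), grey points did not, and the black bar is the median of the list, lowest for the other ectonucleotidases at -0.51.

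Genes whose pattern was most like that of NT5E were ranked by Pearson correlation of log2 CPM over the 8 libraries, among 13184 other tested genes averaging 1 CPM or more. WARS was first (r = 0.981), then DLEU1 (0.975), UNC13B (0.970), CRELD2 (0.969) and HERPUD1 (0.969). WARS had 303.2, 316.1, 301.7 and 310.6 CPM in SPOCK1 libraries 1 to 4, against 237.8, 249.8, 259.3 and 251.8 CPM in vector libraries 1 to 4. Since NT5E parts the groups, such an r mostly ranks genes by how cleanly they part them too. Ranked instead by deviations from the group means over the same 8 libraries, NEK8 came first (r = 0.983), then CALHM1 (0.964), TCTN3 (0.961), IKBKE (0.947) and MICB (0.945). These are the highest of many correlations over few libraries, which differ in depth and base composition, and they carry no test. By the same deviations the other tested adenosine genes ranged from -0.56 for ADORA2B to 0.66 for ENTPD2.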

How the data were processed

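RNA was measured in 8 libraries, 4 per group by their titles. The authors deposited whole-number read counts per gene, without normalization. The submitters' processing notes list, as tools, featureCounts 1.5.0-p3, HISAT2 2.0.5 and CASAVA. Strand setting, build and handling of ambiguous reads: not given in the sources used here. Start, end and strand of all 58735 genes were identical to GENCODE release 29 (GRCh38), and the deposited gene length, in bases, equalled the union of its exons for all of them.

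The members, gene lists, tests and alternatives were chosen with earlier results of these data known. Genes passed filterByExpr (minimum count 10, minimum total 15), which left 15790. Counts were scaled with TMM factors and compared by the quasi-likelihood F test of edgeR 4.0.16 (R 4.3.3) without covariates, with Benjamini-Hochberg adjustment over all genes tested. SE came from the F statistic, and 95% intervals from the fit's degrees of freedom. Log2 CPM used a prior of 0.5 counts. Ratios were compared by exact permutation with scipy 1.17.1. The edgeR and DESeq2 fits were also run on simulated counts. These were drawn without a GC trend or a split among libraries, so that run says nothing of either. Alternatives were RLE and upper-quartile factors, DESeq2 1.42.0, other filters, a replicate block, left-out libraries, libraries 1 and 3 or 2 and 4 alone, sizes without SPOCK1, and offsets fitted with splines of 5 degrees of freedom on GC content and exonic length. The 178 listed genes were matched by symbol (177) or gene ID (1). The text names the 10 members, list genes past the threshold, and the 5 genes most like NT5E by each measure. Other genes with values were chosen after their values were seen, except SPOCK1 and the nearest neighbours. In each group the 6 pairs of libraries differed beyond sampling noise.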

Additional observations from a re-analysis of the deposited data

How the results depend on the processing

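NT5E stayed higher in SPOCK1 cells in all 18 alternatives, at log2 fold changes of 0.75 to 0.93, all within the spread between replicates of the 0.84 reported, and 0.78 to 0.89 without 1 library. All of these refit the libraries whose rise chose NT5E, so they describe the value and do not test it. The count of the 8 other tested members called was 0 in all 18. The number of genes called over the whole table, 165 (39 rises, 126 falls), was 398 by DESeq2, 399 with no filter beyond 1 count, 8 with libraries 1 and 3 alone and 89 to 237 without 1 library (96 without vector library 2, 90 and 89 without SPOCK1 libraries 2 and 3). With offsets on GC content and exonic length it was 646 (393 rises and 253 falls, 60.8% rises against 23.6%). The wider pathway genes called, 3, were 5 with no filter, 6 with the offsets, 0 with libraries 1 and 3 alone, 1 with libraries 2 and 4 alone and 1 to 5 without 1 library, the lowest without vector library 2 and the highest without SPOCK1 library 4. Fewer libraries entered the last sets; for the rest the cause was not tested. The sign turned for 5 of the 8, none of them called in any fit. ADA was at 0.0086, ADORA1 at -0.0301 and ENTPD1 at 0.14 with libraries 1 and 3 alone, ADK at -0.0415 and ADORA2B at -0.0103 with libraries 2 and 4 alone, and ADORA2B at -0.0281 with the offsets. Without 1 library ADORA1 ranged from -0.0753 (SPOCK1 library 4) to 0.277, ADORA2B from -0.0296 (SPOCK1 library 2) to 0.0721 and ENTPD1 from -0.446 to 0.0121 (SPOCK1 library 4). ENTPD8 kept its call in 17 of 18 alternatives (adjusted p = 0.144 with libraries 1 and 3 alone), NR4A1 in 15 and CALHM1 in 10. Deviations of same-numbered libraries of the 2 groups correlated at -0.157, 0.087, 0.111 and 0.173, which gives no clear pairing by number. Between libraries 1 and 3 of either group and 2 and 4 of the other, all correlations were negative, down to -0.342. Within libraries 1 and 3, and within 2 and 4, all were positive except the -0.157, up to 0.347. Library number thus went with a split shared by both groups, for which the main fit had no term. With the replicate number as a block 115 genes were called over the whole table, 0 of the 8 members and 2 of the wider pathway genes, with NT5E at 0.84 ± 0.17 (SE). At 87 to 181 counts per library, NT5E is measured less finely than the transporters.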
